A study of Mus musculus with 6 samples.

Results

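The IL-6, STAT3 and NF-kB feedback circuit was read through 10 genes on 6 Clariom S mouse arrays, each gene by its 1 probe set, out of 22206 probe sets in all, of which 19572 carry a gene symbol (19505 genes). The genes are the receptors Il6ra, Il6st and Il1r1, the transcription factors Stat3, Cebpb and Cebpd, the kinase Pim1, and the feedback regulators Socs3, Bcl3 and Nfkbia. They were selected by gene symbol as a pathway set, and the set was chosen with the differences between the groups on these same arrays already known. Their group differences are therefore given as a description with no test. The 3 AAV-control arrays (48, 49 and 50) came from samples given a vector that the labels and the array methods call empty and the rest of the study describes as coding for EGFP, and the 3 AAV-PIK3CD arrays (51, 52 and 53) from samples given a vector coding for mouse PI3Kδ, a class I PI3K catalytic subunit (gene Pik3cd). In the study's methods the animals were male C57BL/6 mice, injected with AAV8 vectors at 8 weeks of age and killed at 12 weeks, with the transgene of both groups under the TBG promoter, which is active in hepatocytes. The route is given in one place as the portal vein and in another as the tail vein. The labels name the tissue as tumour and the RNA source as a cell culture. The study's array methods also speak of RNA from tumours, while the rest of the study describes mouse liver. The array methods call the 3 samples of a group individual. Nothing in the labels says whether they are 3 separate mice, so p-values speak only for these samples.

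IL-6 binds its receptor IL-6Rα (Il6ra), and the pair joins gp130 (Il6st), whose bound JAK kinases phosphorylate STAT3. In hepatocytes this relay drives the acute phase response, in which plasma proteins such as serum amyloid A are made in large amounts, and C/EBPβ and C/EBPδ (Cebpb, Cebpd) act on many of the same genes. STAT3 also induces SOCS3, which binds gp130 and JAK and ends the signal, and the serine/threonine kinase PIM1. IL-1, through IL-1R1 (Il1r1), releases NF-kB from its inhibitor IkBα (Nfkbia), and NF-kB in turn induces Nfkbia, so that the inhibitor is made again. BCL-3 (Bcl3) is an atypical IkB protein that works in the nucleus with the p50 and p52 subunits of NF-kB.

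The start regions of these genes are shown because the circuit is defined by factors that bind there. RefSeq sequences (GRCm38.p6) from 250 bases before to 50 bases after a start were found for 9 of the 10 genes, with 11 starts in all, and Cebpd had no entry in the table. The letters TTCNNNGAA (a STAT site), TTGCNNAA (a C/EBP site) and the NF-kB consensus (kappa B motif) were searched on both strands. The stretch with a STAT match is that of Socs3, at chr11:117969487-117969546 on the minus strand, and the kappa B stretches are those of Nfkbia, at chr12:55492648-55492707, and Bcl3, at chr7:19822736-19822765, both on the minus strand as well. The last 3 stretches belong to the gene with the largest group difference (Pim1, chr17:29490665-29490784, plus strand) and to the pair whose levels ran together over the arrays (Stat3, chr11:100939541-100939660, minus strand, and Il6st, chr13:112463950-112464069, plus strand), and end at the base before the start. Capitals mark a motif match.
Socs3: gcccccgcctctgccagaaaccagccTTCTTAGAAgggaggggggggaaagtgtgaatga
Nfkbia: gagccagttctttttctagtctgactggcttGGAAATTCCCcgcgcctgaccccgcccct
Bcl3: agtcggcggcagGGGAAGTCCCgctgcccg
Pim1: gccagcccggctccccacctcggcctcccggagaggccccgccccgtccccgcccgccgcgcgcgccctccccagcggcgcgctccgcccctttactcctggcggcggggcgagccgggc
Stat3: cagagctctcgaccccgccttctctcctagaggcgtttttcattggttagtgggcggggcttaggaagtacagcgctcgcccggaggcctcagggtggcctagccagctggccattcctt
Il6st: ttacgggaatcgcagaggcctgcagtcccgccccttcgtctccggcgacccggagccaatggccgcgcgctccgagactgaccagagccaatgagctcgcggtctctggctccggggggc

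The STAT letters lay at -154 to -146 of Socs3 and in 1 of the 11 start regions, while 8.3% of all 32851 start regions in the table held them. The kappa B motif lay at -29 to -20 of Nfkbia, at 3 to 12 of Bcl3 (counted from the first transcribed base) and at -232 to -223 of the second listed start of Il1r1, and 8.46% of all start regions held it. The C/EBP letters were found in 1 of the 11, at -133 to -126 of the first listed start of Il1r1, against 10.8% of all. The Bcl3 and Socs3 matches read the same motif on both strands. No match in such a window says only that these letters are absent from it. The first listed start region of Pim1 (81.3%) and that of Cebpb (80.7%) were rich in G and C, where the median of all start regions was 52.7%. The second listed start of Pim1 held 49.0%.

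The arrays read as liver. On the log2 scale, the albumin gene (Alb) had a mean of 13.24 ± 0.04 in AAV-control and 13.27 ± 0.03 with the PIK3CD vector (SD, n = 3 each), and 7 of 7 measured hepatocyte markers lay above the median of every array. Pik3cd read 4.66, 4.34 and 4.48 in the controls and 4.78, 5.14 and 4.86 in AAV-PIK3CD, with p = 0.1 in an exact permutation test (2-sided), which cannot go lower with 3 against 3. Its mean was 1.35-fold higher, with an adjusted p of 0.675 by rank products and 0.932 by limma, so it did not pass. The controls and array 51 lay below the median of their own array. The mean level of 9 measured pancreatic acinar markers was 8.69 on array 51 and between 4.11 and 4.28 on the other 5 arrays. Differences without array 51 are therefore given below for each of the 10 genes. The 9 measured Kupffer cell markers, all above the median of every array, had a mean level of 6.80 to 7.09 in AAV-control and 6.73 to 6.95 in AAV-PIK3CD. Of these 9 genes 7 were lower in AAV-PIK3CD and 2 higher. Their median difference was -0.14, and between -0.20 and -0.05 with single arrays left out. None of 8 measured neutrophil markers lay above the median of every array, with mean levels of 4.02 to 4.06 and 3.97 to 4.06. Mean levels of the sinusoidal endothelial (7.02 to 7.24 and 6.99 to 7.12), T and B cell (3.86 to 4.05 and 3.99 to 4.17) and bile duct markers (4.12 to 4.36 and 4.2 to 4.6) overlapped between the groups. Those of the stellate cell markers (6.34 to 6.39 and 6.40 to 6.54) were parted only by 6.389 on control array 48 and 6.399 on array 52. Their highest mean was on array 51, and of the 8 measured stellate genes 0 had groups that did not overlap. AAV-PIK3CD lay above all controls in 2 of 6 T and B cell markers and 1 of 9 pancreatic acinar markers. It lay below all controls in 1 of 8 neutrophil and 1 of 8 sinusoidal markers. In the hepatocyte, Kupffer cell and bile duct lists the number was 0. Of all probe sets, 4.47% lay above and 4.97% below in this way. In whole tissue, fewer cells of a type and less RNA per cell cannot be told apart.

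Over the 10 genes, 7 had a lower mean in AAV-PIK3CD and 3 a higher one, with a median difference of -0.11 on the log2 scale, where the median over all probe sets was -0.01 and 51.6% of them were lower. The mean of Pim1 was 1.68-fold lower, that of Bcl3 1.49-fold and that of Stat3 1.19-fold. In these 3 genes each AAV-PIK3CD array lay below every control, an arrangement that 4.97% of all probe sets showed, and 0 of the 10 genes had the opposite arrangement, which 4.47% of all probe sets showed. Rank products is the test in the study's methods, and by it 0 of the 10 genes passed an adjusted p of 0.05, where 0.036% of all probe sets passed as lower and 0.0045% as higher. Those shares are 8 and 1 probe sets. The study reported more upregulated genes than that, under a threshold its methods do not give, so its calls were not reproduced here. By limma 0 of 10 passed, and over all probe sets 0%. At an unadjusted p under 0.05 both tools gave 2 of the 10, where rank products gave 5.7% and limma 5.08% of all probe sets. Because the contrast was known when the genes were chosen, nothing is read from these counts. The spread between arrays of a group was wider for these genes (median SD 0.266) than for all probe sets (0.168).

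**Figure D1:**
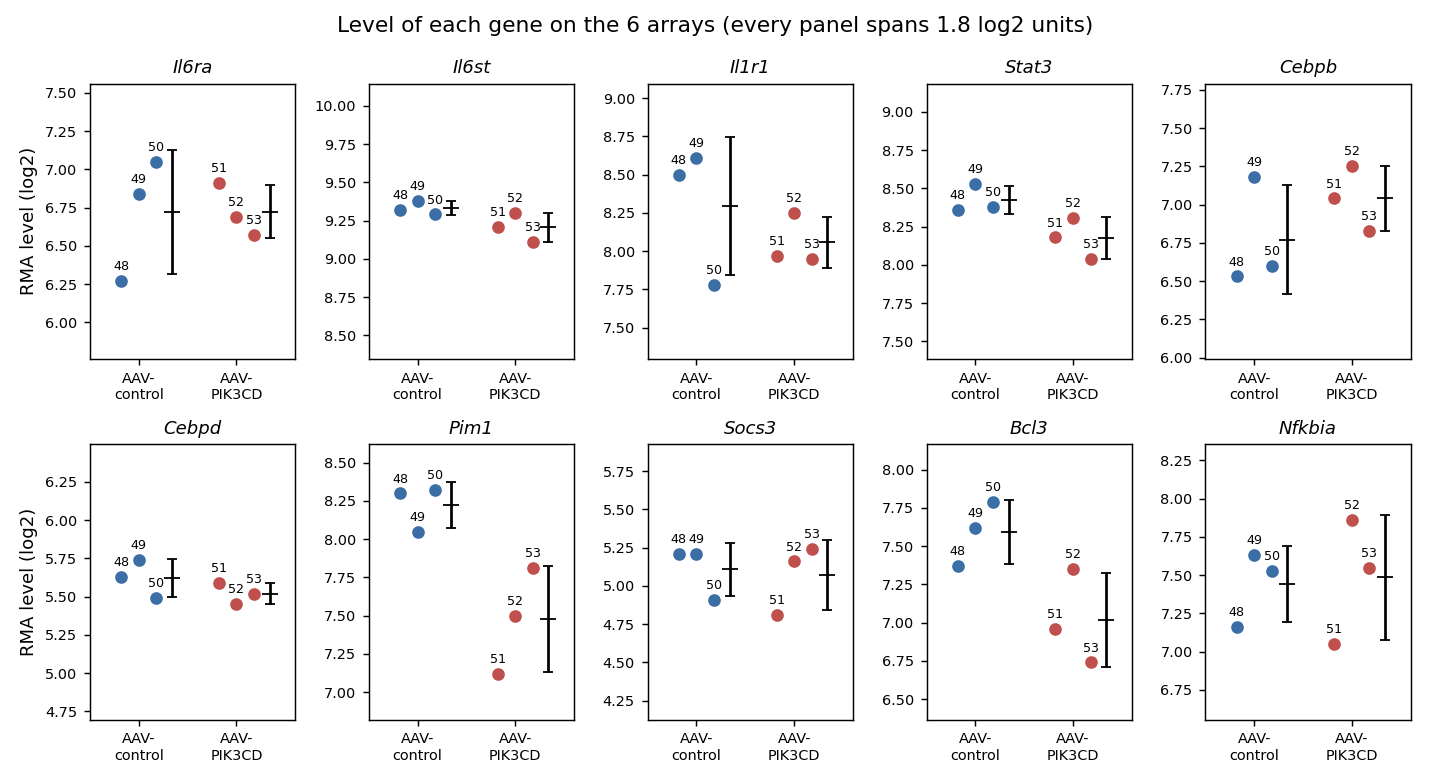
RMA level (log2) of each of the 10 genes on every array, numbered 48 to 53, with AAV-control in blue and AAV-PIK3CD in red; black bars show the group mean ± SD (n = 3). Every panel spans the same height, so that the gap between the groups in Pim1 and Bcl3 can be set against the scatter of Il6ra or Il1r1.

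Among the receptors, the gp130 gene Il6st varied least, with a range of 0.27 over the 6 arrays, the smallest of the 10 genes. It read 9.32, 9.38 and 9.29 in AAV-control and 9.21, 9.30 and 9.11 in AAV-PIK3CD, so that arrays 51 and 53 lay below all controls and array 52 fell among them by 0.01. Its difference was -0.12 (SE 0.12), and it stayed between -0.17 without array 52 and -0.08 without array 53. Il6ra, which gives the complex its specificity for IL-6, read 6.27, 6.84 and 7.05 in AAV-control and 6.91, 6.69 and 6.57 in AAV-PIK3CD. The AAV-PIK3CD arrays lay inside the range of the controls, and the difference was 0.003 (SE 0.19). It changed sign without array 48 (-0.22) or array 51 (-0.09) and was 0.17 without array 50. Il1r1, the signalling receptor of IL-1, read 8.50, 8.61 and 7.78 in AAV-control and 7.97, 8.25 and 7.95 in AAV-PIK3CD. The lowest value of all 6 was thus a control, and the difference of -0.24 (SE 0.20) ranged from -0.50 without array 50 to -0.08 without array 49.

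Stat3 itself read 8.36, 8.53 and 8.38 in AAV-control and 8.18, 8.31 and 8.04 in AAV-PIK3CD. The groups were separated by 0.05, between array 52 and array 48, and the difference was -0.25 (SE 0.12). It lay between -0.31 without array 52 and -0.18 without array 53, and between -0.28 and -0.18 under other scalings of the arrays. The C/EBP genes overlapped between the groups. Cebpb, the factor long known as NF-IL6, read 6.53, 7.18 and 6.60 in AAV-control and 7.04, 7.25 and 6.83 in AAV-PIK3CD, a difference of 0.27 (SE 0.18) in the opposite direction. Array 49 lay among the AAV-PIK3CD values, and without it the difference was 0.48, while without array 48 it was 0.15. Cebpd, a C/EBP gene that rises early in the acute phase response, read 5.63, 5.74 and 5.49 in AAV-control and 5.59, 5.45 and 5.52 in AAV-PIK3CD. These groups overlapped, with a difference of -0.10 (SE 0.12) that was -0.04 without array 49 and -0.17 without array 50.

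Pim1 showed the largest difference of the 10. It read 8.30, 8.05 and 8.32 in AAV-control and 7.12, 7.50 and 7.81 in AAV-PIK3CD, so that the highest AAV-PIK3CD array lay 0.24 below the lowest control. The means were 8.22 ± 0.15 and 7.48 ± 0.35 (SD, n = 3 each), a difference of -0.75 (SE 0.17), which put Pim1 at position 12 from the lowest of the 22206 differences. Array 51, the array with the pancreatic signal, was the lowest. Without it the difference was -0.57, and without array 53, the highest of the AAV-PIK3CD arrays, it was -0.91.

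The PIM family was not lower as a whole. Pim2 read 4.37, 4.51 and 4.30 in AAV-control and 4.59, 4.65 and 4.59 in AAV-PIK3CD, with all AAV-PIK3CD arrays above all controls but below the median of each array. Its difference was 0.22 (SE 0.12), with an adjusted p of 1.0 by rank products and 0.932 by limma. Pim3, named after its values were seen, read 6.0, 6.33 and 5.82 in AAV-control and 6.15, 6.73 and 6.70 in AAV-PIK3CD. Its difference was 0.48 (SE 0.18), with an adjusted p of 0.6 by rank products and 0.932 by limma.

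**Figure D2:**
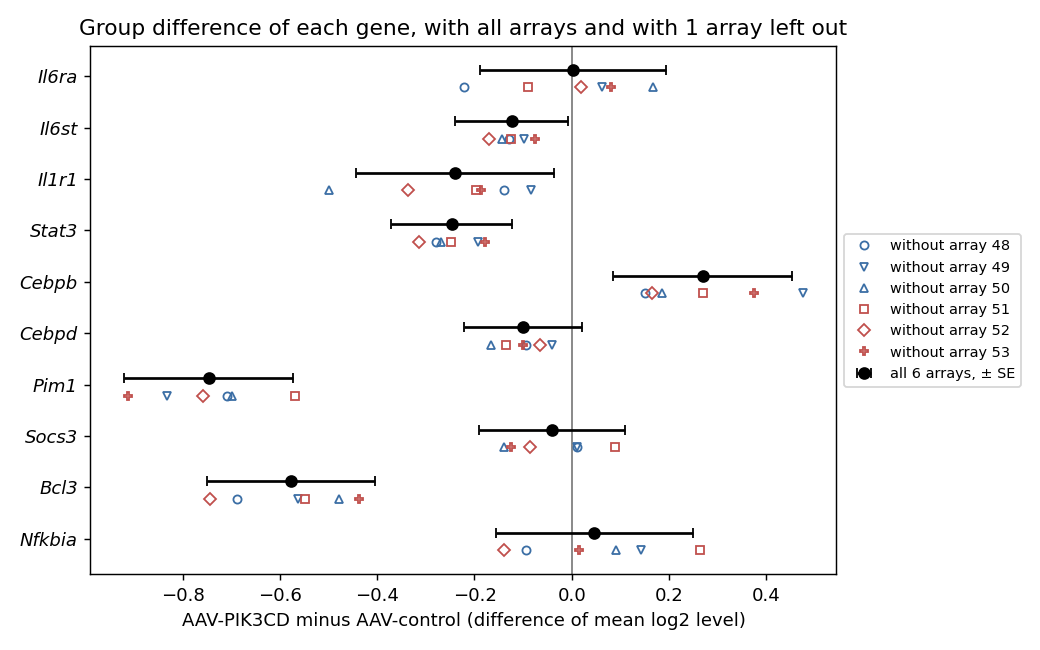
Difference of mean log2 level, AAV-PIK3CD minus AAV-control, for each gene with all 6 arrays (black, ± SE from limma) and with 1 array left out (blue for a control, red for an AAV-PIK3CD array). Pim1 stays between -0.91 and -0.57 and Bcl3 between -0.74 and -0.44, while Il6ra, Socs3 and Nfkbia cross 0.

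The feedback regulators went different ways. Bcl3 read 7.37, 7.62 and 7.79 in AAV-control and 6.96, 7.35 and 6.74 in AAV-PIK3CD. The groups were separated by only 0.02, between array 52 and array 48, while the means, 7.59 ± 0.21 and 7.02 ± 0.31 (SD, n = 3 each), differed by -0.58 (SE 0.17), at position 44 from the lowest of all probe sets. The difference was -0.55 without array 51, -0.44 without array 53 and -0.74 without array 52. Socs3, the feedback inhibitor of gp130, read 5.21, 5.21 and 4.91 in AAV-control and 4.81, 5.16 and 5.24 in AAV-PIK3CD, close to the medians of the arrays (4.81 to 4.87). Its difference of -0.04 (SE 0.15) became 0.09 without array 51 and -0.14 without array 50. Nfkbia, the gene of IkBα, read 7.16, 7.63 and 7.53 in AAV-control and 7.05, 7.86 and 7.55 in AAV-PIK3CD. Both the lowest and the highest of its 6 values were AAV-PIK3CD arrays, and the difference of 0.05 (SE 0.20) ranged from -0.14 without array 52 to 0.27 without array 51.

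The arrays did not rank the genes alike. Array 53 was the lowest of the 6 for Il6st, Stat3 and Bcl3, while array 51 was the lowest for Pim1, Socs3 and Nfkbia. Control array 49 was the highest for Il6st, Il1r1, Stat3 and Cebpd, and control array 50 for Il6ra, Pim1 and Bcl3. Array 52 was the highest for Cebpb and Nfkbia, and its median deviation from the control means over the 10 genes was -0.04, against -0.27 on array 51 and -0.19 on array 53. Without array 51, the difference was -0.125 for Il6st, -0.20 for Il1r1, -0.25 for Stat3, 0.27 for Cebpb and -0.135 for Cebpd. The median difference of the 10 genes was then -0.13.

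Of the 45 pairs of these genes, 3 had a Pearson r over 0.8 across the 6 arrays, and these linked Stat3 with Il6st (0.98), Stat3 with Bcl3 (0.90) and Il6st with Bcl3 (0.85). With the group means removed, r was 0.965 for Stat3 with Il6st, 0.74 for Stat3 with Bcl3 and 0.68 for Il6st with Bcl3. Pim1 was not part of this set of pairs: its r with Bcl3 was 0.62 over the 6 arrays and -0.24 with the group means removed. Stat3 and Cebpb had an r of 0.09 over the 6 arrays and 0.91 within the groups, since Cebpb had the higher mean in AAV-PIK3CD and Stat3 the lower. The median over all 45 pairs was 0.21. All values of 1 array share its hybridization and scaling, and n is 6, so these correlations are a description without a test.

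The acute phase genes are the classical output of this circuit in liver, and their mean level ran with Bcl3 and Stat3 over the arrays. Of 23 measured acute phase genes 21 were lower, with a median difference of -0.11, equal to 2 decimals to that of the 10 genes. Their mean level was 10.06, 10.35 and 10.37 in AAV-control and 9.99, 10.25 and 9.76 in AAV-PIK3CD, so that array 53 was the lowest and array 52 lay within the controls, as it nearly did for Bcl3 and Stat3. Across the 6 arrays this mean had an r of 0.95 with Bcl3, 0.89 with Stat3 and 0.86 with Il6st, and within the groups 0.98, 0.85 and 0.77. The mean is of unscaled log2 levels, so the genes with the widest range weigh most in it. Saa2 spanned 6.82 to 10.78, Saa1 7.01 to 9.64 and Lcn2 5.12 to 8.0, while Fgg spanned only 12.77 to 12.86. The correlations thus describe mainly such variable genes and not each of the 23. Single genes of the list did not all share the pattern of the mean: Hamp was highest on control array 48 (11.72), Orm1 lowest on array 51 (11.25) and Crp on array 53 (10.56) within 0.01 of its highest value. For Pim1 the correlations with the mean were 0.36 and -0.40, and for Socs3 -0.16 and -0.29. Saa1, Saa2 and Hamp fell by rank products (adjusted p of 0.0312, 0.002 and 0.04; limma 0.932 for each), with differences of -1.06, -1.62 and -0.82, and 0 of the 23 rose, where 0.036% of all probe sets passed as lower. On simulated data with the spreads of these arrays, rank products called more unchanged probe sets than its threshold allows, which limma did not. In each of the 3, 2 of the 3 AAV-PIK3CD arrays lay below all controls. The calls did not hold with every array left out, which also leaves fewer pairs to rank. Without array 49, 50 or 53 none of the 3 passed. With 1 array left out, Saa1 passed only without array 48 or 52, Saa2 only without array 48, 51 or 52 and Hamp only without array 51. Hamp missed the threshold without array 50 (adjusted p of 0.0627 by rank products) though its difference there was larger, at -1.08. Without array 53 the differences were -0.59 for Saa1, -0.78 for Saa2 and -0.54 for Hamp. The mean of the Kupffer cell markers ran with Il6ra (r of 0.79 over the arrays, 0.88 within groups) and against Socs3 (-0.79 and -0.94). The part of these cells in either gene's level was not tested.

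**Figure D3:**
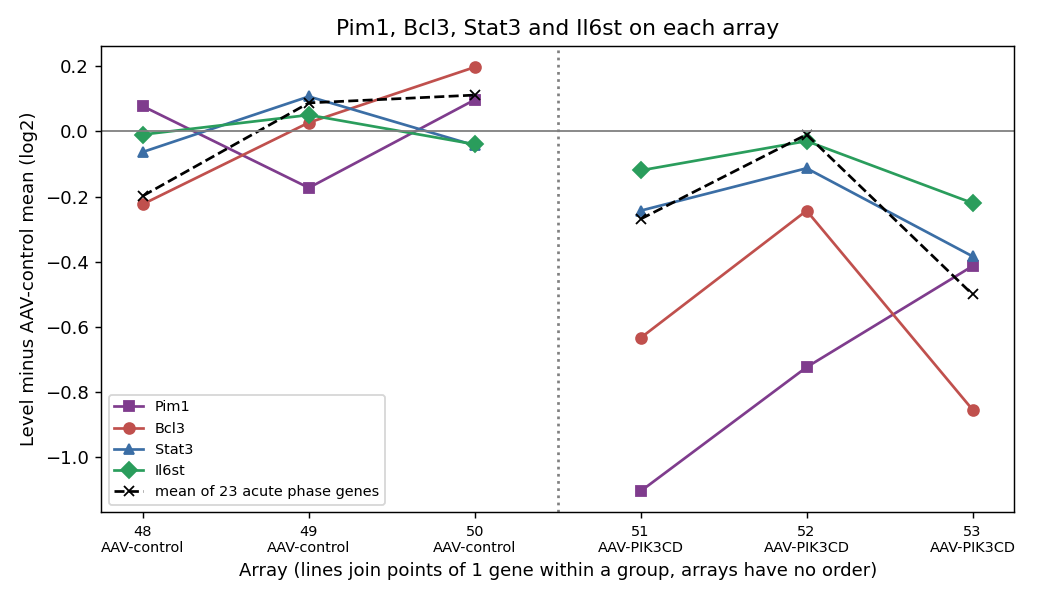
Level of Pim1, Bcl3, Stat3 and Il6st on each array minus the AAV-control mean (log2), with the mean of 23 acute phase genes (black, dashed); lines join the points of 1 gene within a group. Bcl3, Stat3, Il6st and the acute phase mean are at their lowest on array 53 and near the controls on array 52, while Pim1 is lowest on array 51.

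The rest of the pathway was read from 13 lists of ligands, receptors, kinases, inhibitors and targets, of which 95 of 108 genes were measured under the symbol listed. By rank products 0 of the 95 rose and 0 fell over all probe sets, by limma 0 passed, and the number with an unadjusted p under 0.05 was 8 by rank products and 3 by limma, against 5.7% and 5.08% of all probe sets. Their median difference was -0.04, with 38 higher and 57 lower. The groups did not overlap in 7 genes, with AAV-PIK3CD lower in 4 of them and higher in 3, where 4.97% and 4.47% of all probe sets were so placed. The lists were written with earlier results of these data known.

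On the IL-6 side, 7 measured ligands had a median difference of 0.01, and Il6 itself, named after its values were seen, lay between 2.16 and 2.52 on the 6 arrays, far below their medians. Of 4 measured receptors of the family, Osmr, the receptor of oncostatin M, read 5.33, 5.53 and 5.24 in AAV-control and 5.17, 5.21 and 5.18 in AAV-PIK3CD, a difference of -0.18 (SE 0.12) that was -0.10 without control array 49. Among JAK kinases and phosphatases, 6 of 7 were lower, with a median of -0.09. The phosphatase Ptpn11 (SHP2), which binds gp130 at the site that SOCS3 uses, read 7.09, 7.09 and 6.82 in AAV-control and 6.64, 6.74 and 6.68 in AAV-PIK3CD. Its groups did not overlap and its difference was -0.31 (SE 0.12), with an adjusted p of 0.907 by rank products and 0.932 by limma. The 5 other measured STAT genes had a median of -0.04 and the 11 other SOCS and PIAS inhibitors one of -0.06, and the 4 other measured C/EBP factors had one of -0.09. Among the SOCS genes, Socs2, a target of growth hormone named after its values were seen, read 7.96, 8.24 and 5.17 in AAV-control and 7.77, 8.42 and 7.78 in AAV-PIK3CD. Its difference of 0.87 came from control array 50 and was -0.11 without it.

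The 11 measured growth genes that STAT3 can induce were split, with 5 higher and 6 lower. Ier3, an early response gene, read 3.58, 3.42 and 3.56 in AAV-control and 4.21, 3.90 and 3.67 in AAV-PIK3CD, a difference of 0.41 (SE 0.15) at a level below the median of each array. Its highest value was on array 51, and without that array the difference was 0.27. Junb, named after its values were seen, read 6.91, 7.37 and 7.55 in AAV-control and 7.14, 6.96 and 6.47 in AAV-PIK3CD, a difference of -0.42 (SE 0.20) that was -0.23 without array 53. Neither passed, with adjusted p values of 0.782 and 0.68 by rank products.

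On the NF-kB side, the 4 measured subunit genes had a median difference of 0.05, and the 11 other inhibitors one of -0.10, with 7 lower. The measured IKK genes, Ikbkb and Ikbkg of the complex that marks IkBα for destruction and the related kinases Ikbke and Tbk1, had a median of -0.11. The 10 measured genes of the IL-1 family had a median of -0.08. In the 13 measured TNF and TLR receptors and adaptors the median was 0.02, and in 2 of them the groups did not overlap, with AAV-PIK3CD lower. The adaptor Myd88, which serves IL-1R1 and most Toll-like receptors, read 7.02, 7.07 and 6.94 in AAV-control and 6.68, 6.78 and 6.86 in AAV-PIK3CD, a difference of -0.24 (SE 0.12). The TNF receptor Tnfrsf1a differed by -0.17 (SE 0.12). The 4 genes that end inflammatory signals through mRNA decay had a median of -0.08. One of them, Zfp36 (tristetraprolin), read 7.04, 7.96 and 7.92 in AAV-control and 7.97, 8.04 and 8.07 in AAV-PIK3CD. Its groups were separated by 0.01, and its difference of 0.39 (SE 0.22) was 0.09 without control array 48. The adjusted p of Myd88 was 0.996 and that of Zfp36 0.779 by rank products.

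**Figure D4:**
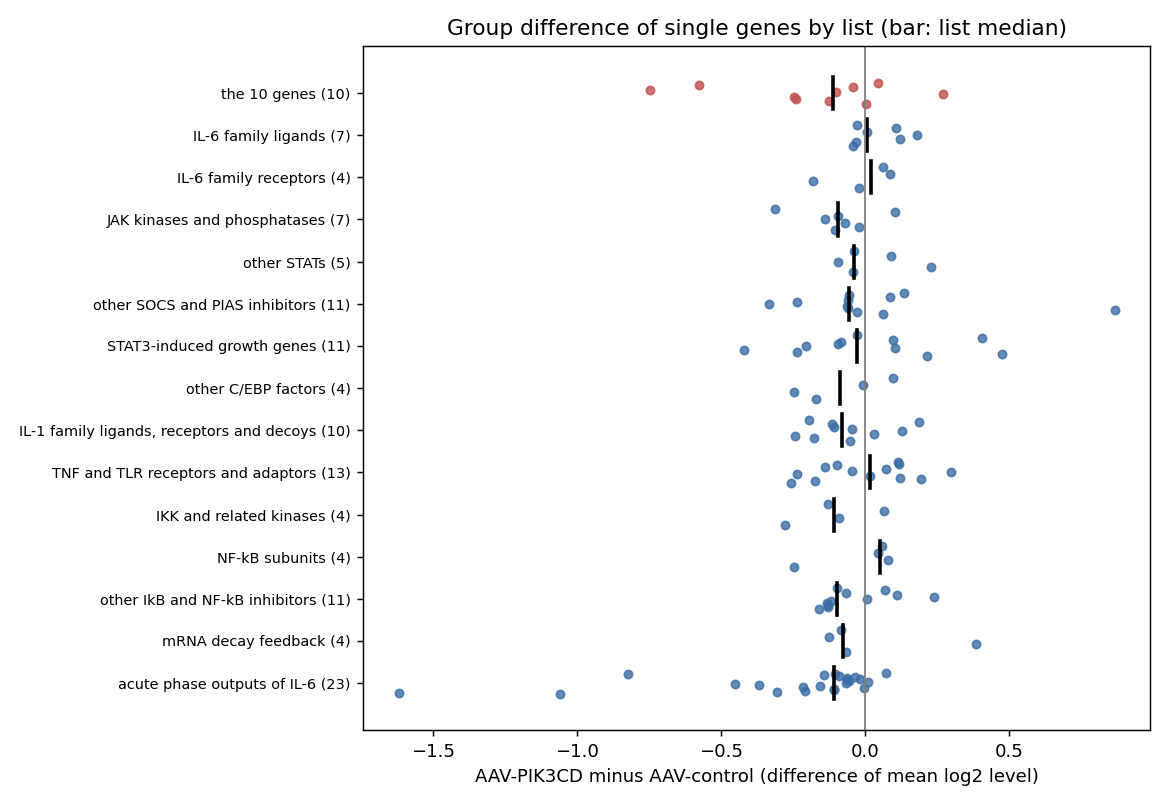
Difference of mean log2 level, AAV-PIK3CD minus AAV-control, of each measured gene by list, with the number of genes in parentheses; red points are the 10 genes, blue points the other lists, and black bars the list medians. List medians lie between -0.11 and 0.05, and the points farthest to the left are Saa2, Saa1 and Hamp among the acute phase outputs.

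Genes with a profile like each of the 10 were sought by Pearson r over the 6 arrays among 9776 named genes above the median level. Closest to Pim1 were Parn (0.99), a poly(A) ribonuclease, and Igbp1 (0.99), with 5.53, 5.76 and 5.90 for Parn in AAV-PIK3CD against 6.15, 6.0 and 6.23 in AAV-control. Closest to Bcl3 were the importin Kpna6 (0.996) and the ubiquitin ligase Uhrf2 (0.99), closest to Stat3 the splicing factor U2af1 (0.99) and the glutathione synthetase Gss (0.98), and closest to Nfkbia the MAP kinase phosphatase Dusp7 (0.996) and Atxn1 (0.98). Il6st was closest to Il9r and Ppat, Il6ra to Rnf146 and Erlin2, Il1r1 to Cnot1 and Mrps23, Cebpb to Slc38a1 and Rtf1, Cebpd to Foxf1 and Parg, and Socs3 to Ice2 and Zfc3h1, with r from 0.96 to 0.996. With only 6 arrays such values are common: 44 genes had an r over 0.95 with Pim1, 23 with Bcl3 and 11 with Stat3.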

How the data were processed

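Labelled total RNA was hybridised to Clariom S mouse arrays, 1 per sample. The authors ran RMA (background correction, quantile normalization and summary per probe set), and the log2 values they deposited were used as given. RMA draws the arrays to a common distribution, so a shift shared by most genes cannot be seen. The version of the RMA software and the build of the array annotation are not given in the sources used here. The number of arrays, 3 in each group, limits the precision.

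No probe set of the 22206 was filtered out, and symbols came from the platform annotation. A difference is the AAV-PIK3CD mean minus the AAV-control mean, with its SE from limma 3.58.1 (R 4.3.3). Rank products, the main test, compared the 9 pairs of arrays with 1000 shuffles within arrays. Its p-values were 2-sided, with Benjamini-Hochberg adjustment across the whole array. They rest on the order of genes within arrays and do not measure the spread between samples of a group. The genes and lists were chosen with earlier results of these data known. Named beside the 10 genes are list genes that passed, up to 2 per list whose groups do not overlap, and the 2 closest genes by r. Others are said to be named after their values were seen. Under this rule Saa4 and Fgg differed by -0.21 and -0.06, with no overlap between the groups. Both tests were tested on simulated data, where, with the spreads of these arrays, rank products called more unchanged probe sets than the threshold of 0.05 allows. The alternatives were limma, the methods' t-test, quantile normalization, median centring, cyclic loess, filters on dim probe sets and each array left out. Start regions came from RefSeq (GRCm38.p6). Other steps ran in Python 3.11.15 (numpy 2.4.6; scipy 1.17.1; pandas 2.3.3) and plots in matplotlib 3.10.9.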

Additional observations from a re-analysis of the deposited data

How the results depend on the processing

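Over the 3 scalings the median difference of the 10 genes lay between -0.15 and -0.08 and with single arrays left out between -0.16 (without array 52) and -0.06 (without array 49), and 6 to 8 of the genes were lower. Of the 10 differences, those of Il6ra, Socs3 and Nfkbia changed sign with an array left out, and that of Il6ra also with median centring (-0.03). Each gene had 1 probe set, so averaging probe sets gave no other value. Genes of the pathway and acute phase lists that passed rank products numbered 3. By limma 0 passed (4 at an unadjusted p under 0.05), and by the methods' t-test 0 (4 likewise). Without the dimmest 50% of probe sets 1 passed, and with single arrays left out from 0 (without array 49, 50 or 53) to 3. The 3 that passed without array 52 included Saa1 and Saa2 but not Hamp (adjusted p of 0.393 by rank products). Over all probe sets 9 passed, with 0 by limma, 0 by the methods' t-test, 5 without the dimmest 25% and 2 without the dimmest 50%, and from 3 to 11 with single arrays left out: 4 without array 48, 5 without array 50 or 52 and 3 without array 53. At an unadjusted p under 0.05, limma gave 1127 probe sets and the methods' t-test 1059. Pik3cd differed by 0.33 to 0.52 with single arrays left out. No paired analysis was possible because the groups share no replicate numbers.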
